A study of Mus musculus with 30 samples.

Results

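The troponin genes examined were Tnnc1 and Tnnc2 for troponin C, Tnni1, Tnni2 and Tnni3 for troponin I, and Tnnt1, Tnnt2 and Tnnt3 for troponin T. They were chosen by name, as the genes of these 3 subunits in the mouse. The rule used no values, but earlier results of these data were known when the choice was made. They are 8 of the 55487 genes counted, and all 8 were among the 15907 genes with enough counts to be tested. RNA-sequencing was analysed for C2C12 myotubes, the multinucleated cells formed by a wild-type mouse myoblast line. All cells first spent 4 days in low glucose medium with 2% horse serum, which lets confluent myoblasts fuse. They then had 4 further days with 2% horse serum (2% HS) or without serum (serum-deprivation, SD). The other 3 groups had no serum either and received 100 nM metformin (MET), 500 nM leucine (LEU) or both at these doses (MET+LEU). Each of the 5 groups had 6 libraries, and all 30 came from 1 cell line, which limits what the groups can stand for. The labels number the replicates and do not say whether they were separate cultures, so p-values measure the spread between these libraries. Serum-deprivation is used as a model of muscle atrophy, and the comparisons ask which troponin transcripts changed with it and whether MET, LEU or MET+LEU changed them again. Since RNA came from whole cultures, fewer myotubes and less RNA per myotube cannot be told apart.

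Troponin is the calcium switch of the thin filament in striated muscle. Troponin C binds calcium, troponin I holds back the interaction of actin and myosin until calcium is bound, and troponin T ties the complex to tropomyosin. Fast fibres use Tnnc2, Tnni2 and Tnnt3, slow fibres use Tnnc1, Tnni1 and Tnnt1, and the heart uses Tnnc1, Tnni3 and Tnnt2. Tnnt2 and Tnnc1 are also made in embryonic skeletal muscle and in newly formed myotubes, so their presence is not a sign of heart cells. The ratio of a fast gene to its slow partner is a common readout of fibre type.

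The genes of troponin I and T lie in pairs. Coordinates are those of GENCODE M21 on GRCm38, the build named in the submitters' processing notes. On chromosome 1, Tnni1 (ENSMUSG00000026418, chr1:135779434-135810989, plus strand) is followed by Tnnt2 (ENSMUSG00000026414, chr1:135836354-135852260, plus strand) after 25.4 kb. On chromosome 7, Tnni2 (ENSMUSG00000031097, chr7:142441808-142444410, plus strand) is followed by Tnnt3 (ENSMUSG00000061723, chr7:142498836-142516009, plus strand) after 54.4 kb. Near the other end of chromosome 7, Tnnt1 (ENSMUSG00000064179, chr7:4504570-4516382, minus strand) and Tnni3 (ENSMUSG00000035458, chr7:4518305-4524229, minus strand) are 1.9 kb apart. So the slow I gene has the cardiac T gene as its neighbour, the fast I gene the fast T gene, and the cardiac I gene the slow T gene. The genes of troponin C stand alone, Tnnc1 (ENSMUSG00000091898, chr14:31208312-31211729, plus strand) on chromosome 14 and Tnnc2 (ENSMUSG00000017300, chr2:164777161-164779967, minus strand) on chromosome 2. Exons of Tnnc2 share 592 bases with those of Ube2c, a cell cycle gene on the opposite strand. Exons of Tnni3 share 86 bases with those of Dnaaf3 on the same strand. Tnnc1 and Tnnt3 overlap Nisch and Prr33 on the opposite strand, with 0 shared exon bases. The library kit keeps the strand, but the strand setting of the counting is not given in the sources used here.

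The sequence before the start site is shown for 3 members that rose together with MET+LEU, Tnnc2, Tnnt1 and Tnnt2, and for 2 that did not pass that test, Tnnc1 and Tnni1. Each window holds the 250 bases before the RefSeq start on GRCm38.p6, in the direction of transcription. RefSeq windows were found for 6 members by symbol, and none was found for Tnni2 and Tnnt3, which also rose with MET+LEU. The windows lie at chr2:164779735-164779984 (minus strand) for Tnnc2, chr7:4515976-4516225 (minus strand) for Tnnt1, chr1:135836084-135836333 (plus strand) for Tnnt2, chr14:31208062-31208311 (plus strand) for Tnnc1 and chr1:135799171-135799420 (plus strand) for Tnni1. For Tnni1 and Tnnt2 the first of 2 listed starts is shown. The RefSeq starts of Tnnc2, Tnnt1 and Tnni1 lie inside the GENCODE genes, so part or all of these windows does too. Capitals mark matches, on either strand, to the E-box CANNTG that myogenic bHLH factors bind, the MCAT element CATTCC of TEAD factors, the TATA box TATAAA, and the MEF2 and CArG elements.
Tnnc2: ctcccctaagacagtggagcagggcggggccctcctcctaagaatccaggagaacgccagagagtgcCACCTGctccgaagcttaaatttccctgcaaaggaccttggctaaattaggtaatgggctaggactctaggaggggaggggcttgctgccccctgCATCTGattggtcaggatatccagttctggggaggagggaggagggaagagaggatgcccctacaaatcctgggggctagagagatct
Tnnt1: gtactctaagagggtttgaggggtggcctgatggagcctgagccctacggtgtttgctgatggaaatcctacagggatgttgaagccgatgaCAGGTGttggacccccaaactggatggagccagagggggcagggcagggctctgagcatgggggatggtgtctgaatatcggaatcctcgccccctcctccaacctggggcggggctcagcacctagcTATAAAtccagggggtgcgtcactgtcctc
Tnnt2: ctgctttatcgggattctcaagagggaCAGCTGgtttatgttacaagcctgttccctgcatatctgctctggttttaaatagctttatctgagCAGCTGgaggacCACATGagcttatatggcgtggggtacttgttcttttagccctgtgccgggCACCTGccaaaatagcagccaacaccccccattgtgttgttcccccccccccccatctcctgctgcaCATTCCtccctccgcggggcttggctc
Tnnc1: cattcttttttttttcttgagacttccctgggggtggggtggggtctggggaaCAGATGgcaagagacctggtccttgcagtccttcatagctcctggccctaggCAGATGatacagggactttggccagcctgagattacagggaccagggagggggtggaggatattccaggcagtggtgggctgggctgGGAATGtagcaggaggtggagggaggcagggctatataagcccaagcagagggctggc
Tnni1: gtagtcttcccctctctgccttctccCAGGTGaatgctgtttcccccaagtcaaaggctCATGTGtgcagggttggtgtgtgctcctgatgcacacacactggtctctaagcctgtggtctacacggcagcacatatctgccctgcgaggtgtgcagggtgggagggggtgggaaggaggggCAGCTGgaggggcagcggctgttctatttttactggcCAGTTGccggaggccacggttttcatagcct
All 6 members with a window held an E-box, as did 66.2% of all 32851 windows of this length. The E-box was matched 4 times in the windows of Tnni1 and Tnnt2, 2 times in those of Tnnc1 and Tnnc2, and 1 time in those of Tnnt1 and Tnni3. MCAT was matched in Tnnc1 and Tnnt2 and in 12.6% of all windows. The TATA box was matched in Tnnt1 alone, 30 bases before the start, and in 12.4% of all windows. The MEF2 and CArG elements, present in 2.92% and 1.47% of all windows, were not matched in the members' windows. These letters are a description of the windows, and no binding was measured.

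Libraries held 12784960 to 19604103 counts on genes, and together the 8 troponin genes took 0.361% to 0.548% of a library. Expression is given as CPM, the counts of a gene scaled by TMM to a common library size, with the mean ± standard deviation of 6 libraries. All 10 myotube markers were expressed, and their summed level ran from 26298 to 39034 CPM. Of 12 heart muscle genes, Myl7, Hand2, Tbx5 and Tbx20 were at 0 in all 30 libraries, and Myl4, which embryonic skeletal muscle also makes, carried nearly all of the summed level. MET+LEU replicate 6 stood apart, with 5.85% of its counts on ribosomal RNA of the nucleus and 7.64% on that of mitochondria. The next highest shares were 1.96% nuclear, in MET+LEU replicate 4, and 0.760% mitochondrial, in MET+LEU replicate 1. The share on mitochondrial ribosomal RNA also differed between the groups. It was 0.281% to 0.367% in SD libraries and at least 0.649% in those of MET+LEU. MET libraries had 0.244% to 0.705%, LEU libraries 0.501% to 0.710%, and 2% HS libraries at most 0.306%.

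All 8 troponin messages were detected, and Tnnc1, the slow form of troponin C, was the most abundant per length. Levels per length are TMM-scaled counts per kilobase of exon, rescaled so that the sum over all genes averaged 1000000 over the libraries, and they are not in the unit of the CPM values. On this scale Tnnc1 had the highest mean level over the 30 libraries at 2859 ± 243. Tnnt3 followed at 1146 ± 315, Tnnc2 at 969 ± 309 and Tnni1 at 894 ± 56.1. The order of Tnnc2 and Tnni1 changed with the group, with Tnnc2 the higher in 0 of 6 libraries in 2% HS and in SD, in 3 of 6 in MET and in 6 of 6 in LEU and in MET+LEU. Below them on the same scale came Tnni2 at 646 ± 190.1, Tnnt1 at 449 ± 115 and Tnnt2 at 355 ± 68.5. Every other step of this order held in 29 or 30 of the 30 libraries. Tnni3, the troponin I of the adult heart, stood far below the rest at 1.69 ± 0.536. The level of Tnnt2 depends on the length used, since its annotated exons cover 7752 bases and its longest transcript 3330, and with the longest transcripts it was 676 on the scale per length. With those lengths Tnni1 (1221) stood above Tnnc2 (905).

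Fast troponin C rose with MET+LEU, and slow troponin C passed there with a GC and length correction, without a filter on low counts, or without SD replicate 1 or 3, and under no other setting tried. Tnnc2 had a lowest, median and highest level of 181, 208 and 220.3 CPM in 2% HS and of 154, 177 and 196 CPM in SD. The same 3 values were 199, 224 and 276 CPM in MET, 243, 262 and 306 CPM in LEU and 251, 321 and 566 CPM in MET+LEU. All 6 libraries of each of the 3 treated groups lay above all 6 in SD. With both agents, Tnnc2 went from 177 ± 17.4 to 348 ± 112 CPM, a 1.97-fold rise (95% interval 1.62 to 2.38; log2 fold change 0.98 with a standard error of 0.13, adjusted p = 1.6e-05). Without MET+LEU replicate 6, at 566 CPM the highest library, the log2 fold change was 0.78 (adjusted p = 1.4e-06). In LEU vs. SD it was also upregulated, to a mean of 267 CPM (log2 fold change 0.60 with a standard error of 0.13, adjusted p = 0.0360). That call was lost without any one of SD replicates 2, 4, 5 and 6 and LEU replicates 1, 2, 3, 4 and 6 (adjusted p = 0.0515 to 0.0919), with the GC and length correction (0.150), with nuclear ribosomal RNA as a term (0.0629) or with mitochondrial ribosomal RNA as a term and MET+LEU replicate 6 left out (0.296), and held with MET+LEU replicate 6 out of the model (2.6e-04). In MET vs. SD the mean was 231 ± 31.5 CPM and the test was not passed (log2 fold change 0.39 with a standard error of 0.13, adjusted p = 0.298), though with MET+LEU replicate 6 left out of the shared model it was (adjusted p = 0.0254). In SD vs. 2% HS, Tnnc2 did not pass (log2 fold change -0.22, adjusted p = 0.244), but fell in a fit of only these groups (-0.22, adjusted p = 0.00388) and with mitochondrial ribosomal RNA as a term (-0.29, adjusted p = 0.00299). Ube2c, whose exons Tnnc2 overlaps, had 4.15 ± 0.562 CPM with MET+LEU against 5.73 ± 1.21 in SD, and it fell where Tnnc2 rose (log2 fold change -0.46, adjusted p = 0.0333).

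Tnnc1, the troponin C of slow fibres and heart, varied little between the groups. Tnnc1 had a lowest, median and highest level of 860.2, 941 and 982 CPM in 2% HS and of 832, 888 and 1130.2 CPM in SD. The same 3 values were 819, 886 and 917 CPM in MET, 893, 947 and 973 CPM in LEU and 931, 1043 and 1117 CPM in MET+LEU. The groups overlapped in every comparison with SD, and the SD libraries alone spanned the range from 832 to 1130.2 CPM. Its log2 fold change was -0.0029 in SD vs. 2% HS (95% interval -0.12 to 0.11) and 0.13 in MET+LEU vs. SD (95% interval 0.015 to 0.24, adjusted p = 0.106). The latter passed when SD replicate 1 was left out, with 0.18 (adjusted p = 0.00511), and when SD replicate 3 was (0.15, adjusted p = 0.0468). It also passed, with 0.20, when the GC content and length of transcripts were corrected for (adjusted p = 0.00166). Against MET, MET+LEU had it upregulated (log2 fold change 0.22 with a standard error of 0.056, adjusted p = 0.0123), but not without MET+LEU replicate 6 (0.20, adjusted p = 0.0587).

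**Figure D1:**
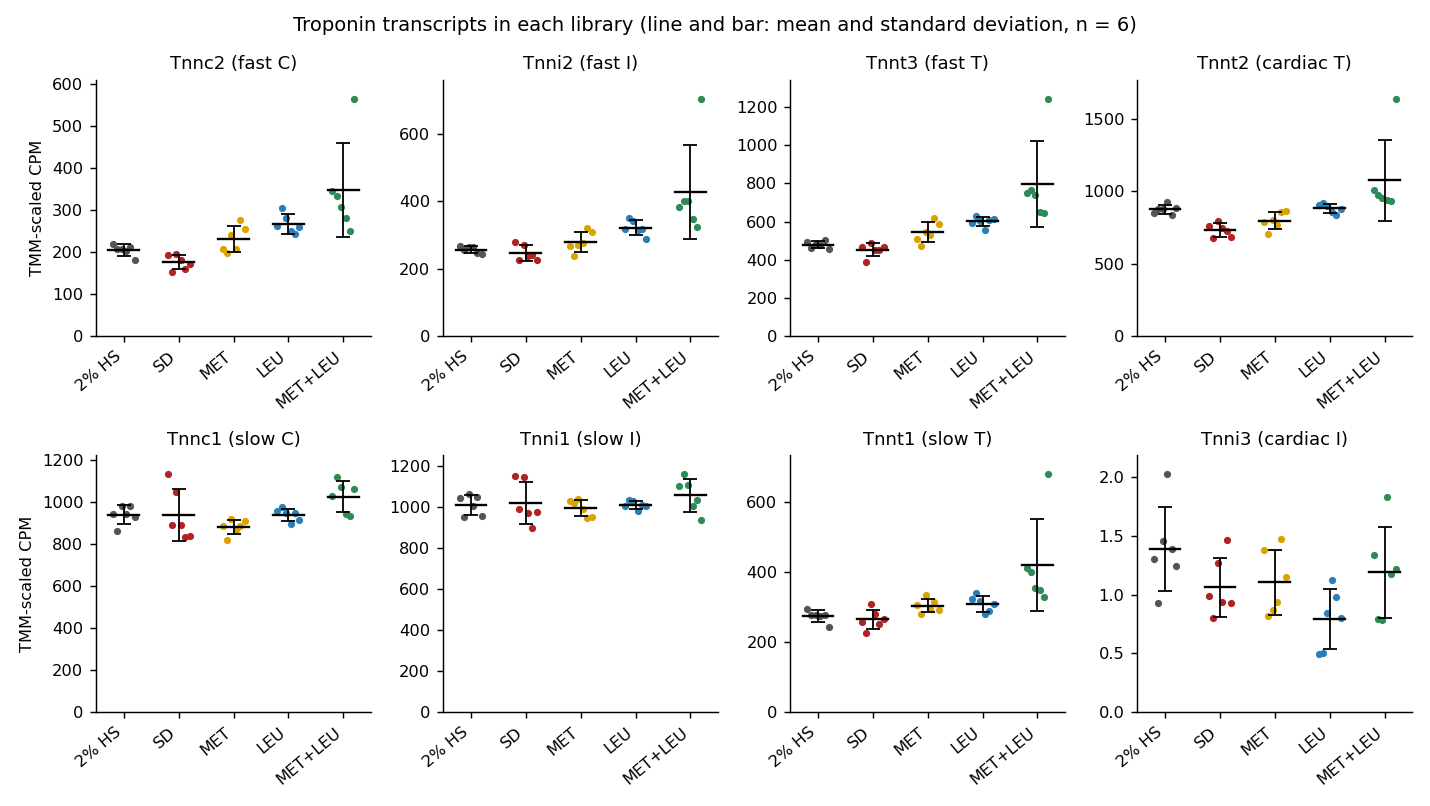
TMM-scaled CPM of the 8 troponin genes (vertical axes, each from 0) in the libraries of the 5 groups (horizontal axes), 1 point per library, with the mean as a line and the standard deviation as a bar (n = 6). The MET+LEU points of Tnnc2, Tnni2, Tnnt3, Tnnt2 and Tnnt1 lie above all SD points, with MET+LEU replicate 6 as the highest, while those of Tnnc1, Tnni1 and Tnni3 overlap the SD points.

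Among the troponin I genes, Tnni2 of fast fibres rose with MET+LEU, while Tnni1 of slow fibres did not pass in any comparison with SD unless GC and length were corrected for. Tnni2 had a lowest, median and highest level of 243, 259 and 267 CPM in 2% HS and of 225, 238 and 280.3 CPM in SD. The same 3 values were 239, 274 and 320.5 CPM in MET, 288, 317 and 351 CPM in LEU and 324, 392 and 704 CPM in MET+LEU. The libraries of SD and 2% HS overlapped, those of MET reached from within the SD range to above it, and those of LEU and MET+LEU were all higher than any SD library. Tnni2 went from 246 ± 23.2 CPM in SD to 427 ± 139 CPM in MET+LEU, a 1.73-fold rise (95% interval 1.45 to 2.07; log2 fold change 0.79 with a standard error of 0.13, adjusted p = 8.0e-05). Without MET+LEU replicate 6, at 704 CPM, the log2 fold change was 0.59 (adjusted p = 2.1e-06). In LEU vs. SD its log2 fold change of 0.38 missed the threshold (adjusted p = 0.220), and it passed with MET+LEU replicate 6 out of the model (adjusted p = 0.00187).

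Tnni1 ranged from 900.1 to 1159.7 CPM over all 30 libraries, with overlap between all groups. Its log2 fold changes were 0.014 in SD vs. 2% HS, -0.037 in MET vs. SD, -0.015 in LEU vs. SD and 0.049 in MET+LEU vs. SD. None passed, the 95% interval of the last was -0.047 to 0.14, and with the GC and length correction it was 0.13 and passed (adjusted p = 0.0267). Tnni3, the adult heart form, had 0.496 to 2.02 CPM. At this depth no change of Tnni3 was detectable, with intervals as wide as -0.95 to 0.10 in LEU vs. SD, and Dnaaf3, which shares 86 of its exon bases, was at 0.287 to 0.443 CPM on average in each group.

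All 3 troponin T genes rose with MET+LEU, the slow one included. Tnnt3 had a lowest, median and highest level of 459, 480.3 and 505 CPM in 2% HS and of 389.8, 459.7 and 487 CPM in SD. The same 3 values were 474, 539 and 619.8 CPM in MET, 558, 607 and 627 CPM in LEU and 643, 743 and 1243 CPM in MET+LEU. All LEU and MET+LEU libraries of this fast form, and 5 of 6 MET libraries, lay above all SD libraries. Tnnt3 went from 453 ± 33.2 to 797 ± 225 CPM in MET+LEU vs. SD, a 1.76-fold rise (95% interval 1.51 to 2.05; log2 fold change 0.82 with a standard error of 0.11, adjusted p = 1.1e-05). The log2 fold change was 0.64 without MET+LEU replicate 6 (adjusted p = 1.0e-08). In MET vs. SD and LEU vs. SD the log2 fold changes were 0.27 (adjusted p = 0.391) and 0.41 (adjusted p = 0.0908), and both passed with MET+LEU replicate 6 out of the model (adjusted p = 0.0138 and 9.9e-05).

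Tnnt1, the troponin T of slow fibres, passed in MET+LEU vs. SD, where its slow partners Tnnc1 and Tnni1 did not unless GC and length were corrected for, or, for Tnnc1, under the settings named above. Tnnt1 had a lowest, median and highest level of 244, 276 and 294 CPM in 2% HS and of 226, 260.1 and 308 CPM in SD. The same 3 values were 279.8, 300.2 and 335 CPM in MET, 279, 312 and 339 CPM in LEU and 328, 377 and 678 CPM in MET+LEU. The MET and LEU libraries overlapped those in SD, and the MET+LEU libraries lay above all of them. It went from 264 ± 27.9 to 419.6 ± 131 CPM in MET+LEU vs. SD, a 1.59-fold rise (95% interval 1.34 to 1.88; log2 fold change 0.67 with a standard error of 0.12, adjusted p = 3.0e-04), and its log2 fold change was 0.47 without MET+LEU replicate 6 (adjusted p = 3.5e-05).

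Tnnt2, the heart and embryonic form, was the one member that passed in SD vs. 2% HS. Tnnt2 had a lowest, median and highest level of 839, 878 and 929 CPM in 2% HS and of 679, 737 and 796 CPM in SD. The same 3 values were 709, 796 and 866 CPM in MET, 837, 889.7 and 919.9 CPM in LEU and 937, 966 and 1639.9 CPM in MET+LEU. All SD libraries lay below all 2% HS libraries, and every LEU and every MET+LEU library exceeded every SD library. It fell from 877 ± 31.6 to 733 ± 45.9 CPM in SD vs. 2% HS, a 0.84-fold level (95% interval 0.73 to 0.96; log2 fold change -0.26 with a standard error of 0.10, adjusted p = 0.0433). The call was lost without any one of 2% HS replicates 2 to 6 and SD replicates 2, 4, 5 and 6 (adjusted p up to 0.0795), with DESeq2 (0.0530), without the filter on low counts (0.0777) and with the GC and length correction (0.131), and held with MET+LEU replicate 6 out of the model (8.7e-08). It rose 1.47-fold to 1076 ± 278 CPM in MET+LEU vs. SD (95% interval 1.28 to 1.68; log2 fold change 0.55 with a standard error of 0.10, adjusted p = 2.0e-04), and the log2 fold change was 0.39 without MET+LEU replicate 6, at 1639.9 CPM (adjusted p = 1.3e-10).

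Counted over the family, SD vs. 2% HS changed 1 of 8 troponin genes, downward, where 27.8% of all genes tested changed and 13.9% fell. The libraries of that gene did not overlap between the groups, which was true of 13.6% of all genes. With MET+LEU replicate 6 out of the model it was again 1 of 8, beside 30.3% of all genes. A fit of only these groups added Tnnc2, 2 of 8 beside 28.7% of all genes, and the mitochondrial ribosomal RNA term added Tnnc2, Tnni2 (-0.13) and Tnnt3 (-0.15), 4 of 8 beside 30.2%. The median log2 fold change of the 8 was -0.072, beside 0.0028 for all genes. MET vs. SD changed 0 of 8 with edgeR, DESeq2 and limma-voom alike, where 0.157% of all genes changed with edgeR. Of the 8, 2 had an unadjusted p under 0.05 in edgeR, as did 10% of all genes. For 1 of 8, Tnnc2, the libraries did not overlap, beside 0.717% of all genes. With MET+LEU replicate 6 out of the model, 2 of 8 passed, Tnnc2 and Tnnt3, beside 0.996% of all genes. LEU vs. SD changed 1 of 8, upward, where 0.553% of all genes changed and 0.233% rose. The libraries did not overlap for 4 of 8, Tnnc2, Tnni2, Tnnt2 and Tnnt3, beside 1.31% of all genes, and these 4 passed with MET+LEU replicate 6 out of the model, when 1.67% of all genes did. The same 4 passed with limma-voom and in a fit of only these groups, the latter beside 1.31% of all genes, and Tnnc2 and Tnnt3 passed with DESeq2. The shares of all genes with limma-voom and DESeq2 are not given here, so these counts have no background. MET+LEU vs. SD changed 5 of 8, all upward (7 of 8 with the GC and length correction, which added Tnnc1 and Tnni1, beside 25.4% of all genes), where 18.4% of all genes changed and 10.6% rose. The median of the 8 there was 0.61, beside -0.0050 for all genes, and the 5 kept passing without MET+LEU replicate 6, when 13.5% of genes did. The libraries of these 5 members did not overlap between MET+LEU and SD, which was true of 5.34% of all genes. The 3 comparisons with SD share its libraries, so their values are not independent of each other.

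**Figure D2:**
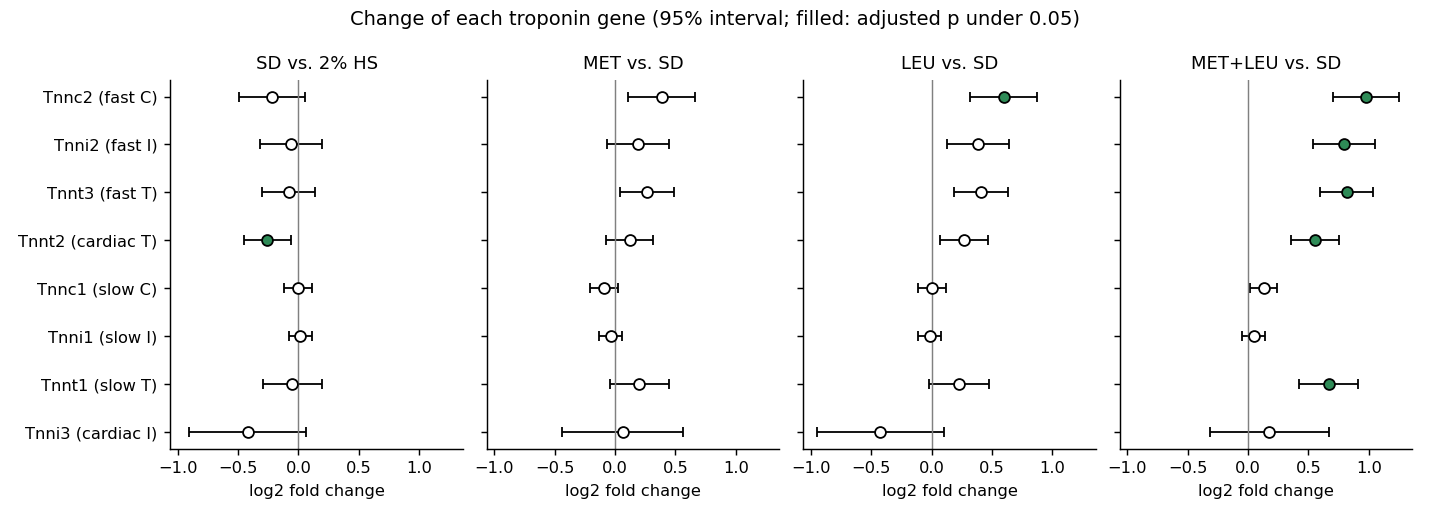
Log2 fold change (horizontal axes) with its 95% interval for the 8 troponin genes (rows) in 4 comparisons (panels), with filled points where the adjusted p was under 0.05. In MET+LEU vs. SD, 5 genes are filled at 0.55 to 0.98, and Tnnc1, Tnni1 and Tnni3 are open.

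With MET+LEU the same 5 genes also stood above their level in serum. In MET+LEU vs. 2% HS, Tnnc2 (0.76), Tnni2 (0.73), Tnnt3 (0.73), Tnnt1 (0.62) and Tnnt2 (0.29 on the log2 scale, adjusted p = 0.0144) were upregulated, 5 of 8, where 42.3% of all genes changed and 22.1% rose. The libraries of all 5 stood clear of those in 2% HS, as for 21% of all genes, and without MET+LEU replicate 6 all 5 passed, at 0.56 (Tnnc2), 0.52 (Tnni2), 0.55 (Tnnt3), 0.42 (Tnnt1) and 0.13 (Tnnt2, adjusted p = 0.00788), beside 40.5% of genes. With the share of mitochondrial ribosomal RNA as a term, Tnnt3 (0.25) still rose in this comparison, Tnnc2, Tnni2 and Tnnt1 did not pass, and Tnnt2 fell by 0.15 on the log2 scale (adjusted p = 0.0207). That made 2 of 8, beside 26.3% of all genes. Tnnc1 did not pass here (0.13, adjusted p = 0.0681), but did with the GC and length correction, with which Tnni1 passed too (0.15 and 0.14, adjusted p = 0.00975 and 0.0137), without a filter on low counts (adjusted p = 0.00993) or in a fit of only these groups (0.0367). That last fit lost Tnnt2 (0.29, adjusted p = 0.112) and so called 5 of 8, beside 40.5% of all genes. Tnnc1 also passed without MET+LEU replicate 4 (adjusted p = 0.0482) or replicate 5 (adjusted p = 0.0400). Against MET alone, these 5 and Tnnc1 were upregulated with MET+LEU, 6 of 8 where 8.69% of all genes changed and 5.54% rose. In a fit of only these groups Tnnc1 alone passed, and Tnnc2 (0.111), Tnni2 (0.0901), Tnnt1 (0.147), Tnnt2 (0.110) and Tnnt3 (0.0789) did not by their adjusted p, 1 of 8 beside 3.94% of all genes. Without MET+LEU replicate 6 it was 5 of 8, at log2 fold changes of 0.39 (Tnnc2), 0.40 (Tnni2), 0.27 (Tnnt1), 0.26 (Tnnt2) and 0.37 (Tnnt3), beside 4.52% of all genes. Upregulated against LEU alone were Tnni2 (0.41, adjusted p = 0.0488), Tnnt1 (0.44, adjusted p = 0.0277) and Tnnt3 (0.41, adjusted p = 0.0248), 3 of 8 where 6.28% of all genes changed and 4.61% rose. Tnni2 passed in 3 of the 12 fits that left out 1 library each, failing without any LEU library and without MET+LEU replicates 1, 2 and 6, Tnnt1 failed without LEU replicates 3, 4 and 5 and MET+LEU replicate 6, and Tnnt3 failed without LEU replicates 1, 3, 4 and 5, with adjusted p up to 0.131 (Tnni2), 0.0734 (Tnnt1) and 0.0654 (Tnnt3). Tnni2 was also lost with the size factors of DESeq2 (0.0568), upper-quartile scaling (0.0648), no filter (0.0833) and limma-voom (0.0743). In a fit of only these groups none of the 3 passed (adjusted p = 0.183 to 0.249), 0 of 8 beside 2.08% of all genes. Tnnc2 and Tnnt2 in turn passed without the robust option (0.0335 and 0.0305), with the GC and length correction (0.0260 and 0.0379) and without MET+LEU replicate 5 (0.0434) and replicate 3 (0.0485). Without MET+LEU replicate 6, Tnnt3 alone passed against LEU (0.23, adjusted p = 0.0302), beside 2.85% of all genes.

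The interaction term asks whether MET+LEU differed from the sum of the changes with MET and with LEU on the log2 scale. It passed for 0 of 8 troponin genes with edgeR, DESeq2 and limma-voom, where 0.0503% of all genes passed with edgeR. At an unadjusted p under 0.05 it was 1 gene, beside 8.73% of all genes, namely Tnnc1, with a term of 0.22 (adjusted p = 0.378). With the GC and length correction Tnnc1 passed, at 0.36 (adjusted p = 0.0144), 1 of 8 beside 0.207% of all genes. For Tnnc2 the term was -0.0086 with a 95% interval of -0.39 to 0.38, for Tnni2 0.22 (-0.14 to 0.58) and for Tnnt3 0.14 (-0.17 to 0.45). Each of these intervals includes terms in either direction. The terms without MET+LEU replicate 6 were -0.21 for Tnnc2, 0.0094 for Tnni2, -0.040 for Tnnt3 and 0.20 for Tnnc1, and none passed.

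The mitochondrial ribosomal RNA share did not overlap between the groups of MET+LEU vs. SD, of LEU vs. SD or of MET+LEU vs. 2% HS. In these comparisons this share and the treatment cannot be told apart. In a fit with this share as a term, chosen after seeing the data, Tnnc2 (0.49), Tnni2 (0.31), Tnnt3 (0.40) and Tnnt2 (0.17 on the log2 scale) still rose in MET+LEU vs. SD. Tnnt1 had 0.24 there (adjusted p = 0.130). That was 4 of 8, beside 3.72% of all genes. With the nuclear ribosomal RNA share as the term, Tnnc2 (0.64), Tnni2 (0.46) and Tnnt3 (0.54) passed, the fast gene of each subunit. Tnnt1 (0.37, adjusted p = 0.104) and Tnnt2 (0.30, adjusted p = 0.0802) did not, so that 3 of 8 passed beside 5.5% of all genes. With that term 1 of 8, Tnnt3, passed in MET+LEU vs. 2% HS, beside 25.8% of all genes, and 0 of 8 passed against MET or LEU alone, beside 1.43% and 1.87%. In LEU vs. SD, the mitochondrial term left Tnnc2 at 0.37 (adjusted p = 0.0278) and Tnnt3 at 0.21 (adjusted p = 0.0170), and both passed. Tnni2 (0.15, adjusted p = 0.323) and Tnnt2 (0.086, adjusted p = 0.503) did not.

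The fast to slow ratio was taken for each subunit within each library, as the count of the fast gene over that of its slow partner. It does not depend on library size or scaling. For troponin C, Tnnc2/Tnnc1 had a lowest, median and highest value of 0.195, 0.217 and 0.243 in 2% HS and of 0.172, 0.190 and 0.207 in SD. These values were 0.233, 0.253 and 0.312 in MET, 0.257, 0.283 and 0.314 in LEU and 0.270, 0.299 and 0.534 in MET+LEU. The ratio fell with SD, partly overlapping 2% HS, and every library of the 3 treated groups lay above every SD library. The log2 ratio fell by 0.21 in SD vs. 2% HS (adjusted p = 0.0195, exact permutation test, two-sided, n = 6 each). It rose by 0.46 with MET, 0.59 with LEU and 0.80 with MET+LEU vs. SD (adjusted p = 0.00406 for each, exact permutation test). That value follows from 0.00216, the smallest p that 6 against 6 libraries allow, adjusted over the 15 tests of 3 pairs and 5 comparisons.

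For troponin I, Tnni2/Tnni1 had a lowest, median and highest value of 0.236, 0.254 and 0.268 in 2% HS and of 0.228, 0.239 and 0.267 in SD. These values were 0.234, 0.270 and 0.339 in MET, 0.287, 0.318 and 0.339 in LEU and 0.314, 0.348 and 0.751 in MET+LEU. With LEU and MET+LEU every library exceeded every SD library, and with MET 3 of 6 did. The log2 ratio rose by 0.40 with LEU and by 0.70 with MET+LEU (adjusted p = 0.00406 for each, exact permutation test). With MET it rose by 0.22 (adjusted p = 0.0406, exact permutation test), a call that was lost without any one of SD replicates 1, 2, 3, 4 and 6 and MET replicates 4, 5 and 6 (adjusted p = 0.0622 to 0.0974). The 3 MET libraries above SD were replicates 4 to 6, which also had the 3 highest shares of mitochondrial ribosomal RNA in MET, 0.624% to 0.705%, and its part in the ratio was not tested. In SD vs. 2% HS the log2 difference was -0.075 (adjusted p = 0.130, exact permutation test), and without SD replicate 5 it was -0.10 and passed (adjusted p = 0.0250).

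For troponin T, Tnnt3/Tnnt1 compares genes that both rose with MET+LEU. Its lowest, median and highest values were 1.67, 1.75 and 1.88 in 2% HS and 1.58, 1.74 and 1.82 in SD. These values were 1.64, 1.75 and 2.01 in MET, 1.85, 1.95 and 2.11 in LEU and 1.82, 1.89 and 2.09 in MET+LEU. LEU libraries lay above all SD libraries, 5 of 6 MET+LEU libraries did, and MET libraries reached from within the SD range to above it. The log2 ratio rose by 0.18 with LEU (adjusted p = 0.00406) and by 0.15 with MET+LEU (adjusted p = 0.00722, exact permutation tests). With MET the difference was 0.057 (adjusted p = 0.404) and in SD vs. 2% HS -0.030 (adjusted p = 0.504, exact permutation tests). Whether the pairs differed from one another was not tested.

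Compared with serum, the ratios in MET+LEU were higher by 0.59 for troponin C, 0.62 for troponin I (adjusted p = 0.00406 for both) and 0.12 for troponin T on the log2 scale (adjusted p = 0.0236, exact permutation tests). Without MET+LEU replicate 6 the MET+LEU vs. SD differences were 0.66, 0.51 and 0.16 for C, I and T, and those from 2% HS were 0.44, 0.43 and 0.13, all past the test. In the gene fits with mitochondrial ribosomal RNA as a term, MET+LEU vs. 2% HS gave 0.20 for Tnnc2 and 0.067 for Tnnc1. It gave 0.17 for Tnni2 beside 0.16 for Tnni1, and 0.25 for Tnnt3 beside 0.12 for Tnnt1. In MET+LEU vs. SD that term gave 0.49 and 0.078 for Tnnc2 and Tnnc1. For Tnni2 and Tnni1 it gave 0.31 and 0.13, and for Tnnt3 and Tnnt1 0.40 and 0.24. The part of this share in the ratios was not tested.

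**Figure D3:**
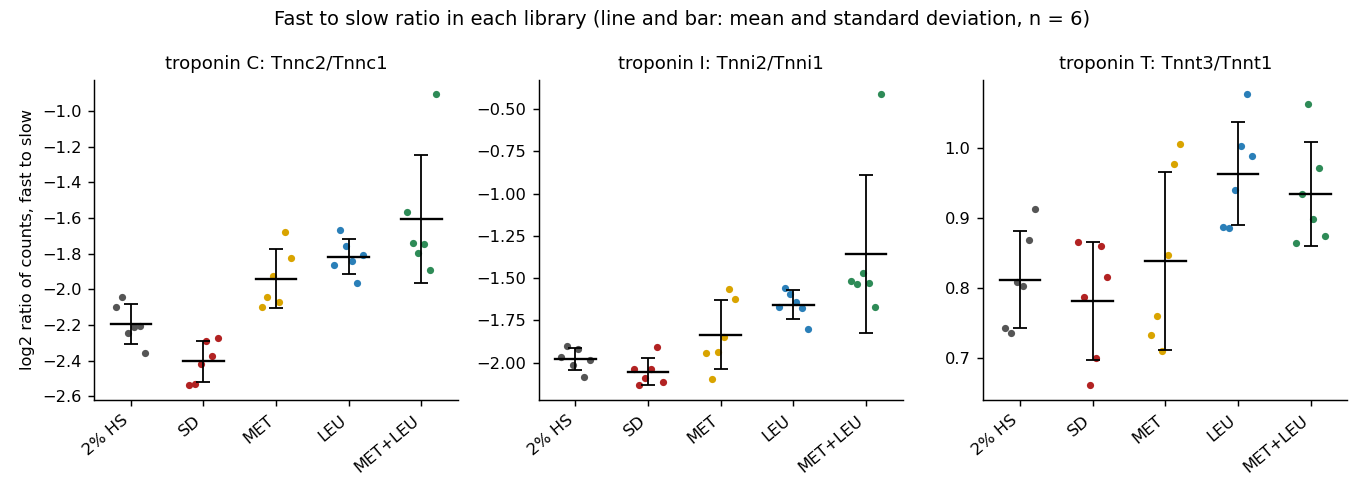
Log2 ratio of the fast to the slow gene's counts (vertical axes, a log scale) for troponin C, I and T in the libraries of the 5 groups (horizontal axes), 1 point per library, with the mean as a line and the standard deviation as a bar (n = 6). The C ratio lies above all SD libraries in MET, LEU and MET+LEU, the I ratio in LEU and MET+LEU, and the T ratio in LEU.

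Expressed as the make-up of each subunit per length of exon, the myotubes stayed mixed in every group. Slow Tnnc1 made up 77.8% ± 1.33 of troponin C with serum and 80.2% ± 1.26 without it. Its share was 74.6% ± 2.18 with MET, 73.0% ± 1.35 with LEU and 69.9% ± 5.52 with both, or 72.1% ± 1.64 without MET+LEU replicate 6. Slow Tnni1 was 62.0% ± 1.08 of troponin I in 2% HS, 63.2% ± 1.32 in SD and 51.5% ± 7.89 in MET+LEU, with Tnni3 never above 0.215% in a library. In MET+LEU replicate 6 the fast form was the larger part of troponin I, at 64.3%. The other 5 MET+LEU libraries had 54.7% ± 1.29 Tnni1 and 45.2% ± 1.29 Tnni2, beside 56.7% ± 1.42 Tnni1 in LEU. Fast Tnnt3 was the larger part of troponin T throughout, from 56.1% ± 0.989 in 2% HS to 60.5% ± 0.972 in MET+LEU, while Tnnt2 took 18.9% ± 0.823 in SD and 16.8% ± 0.791 in MET+LEU. These MET+LEU shares without replicate 6 were 60.6% ± 1.07 and 16.9% ± 0.833. Summed per length, the 3 fast genes stood at 0.560 ± 0.0216 of the level of the 3 slow genes with serum and at 0.517 ± 0.0368 without it. This quotient, given with no test, reached 0.651 ± 0.0669 for MET, 0.702 ± 0.0216 for LEU and 0.826 ± 0.203 for their combination, or 0.744 ± 0.0291 without replicate 6 of the latter. So per length of exon, troponin C was mostly of the slow form and troponin T mostly of the fast form in every group. With the longest transcripts instead, Tnnt3 was 46.0% of troponin T in 2% HS, 47.2% in SD and 48.9% in MET. On that length it was 50.0% in LEU and 50.7% in MET+LEU, where Tnnc1 was 74.5% of troponin C.

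**Figure D4:**
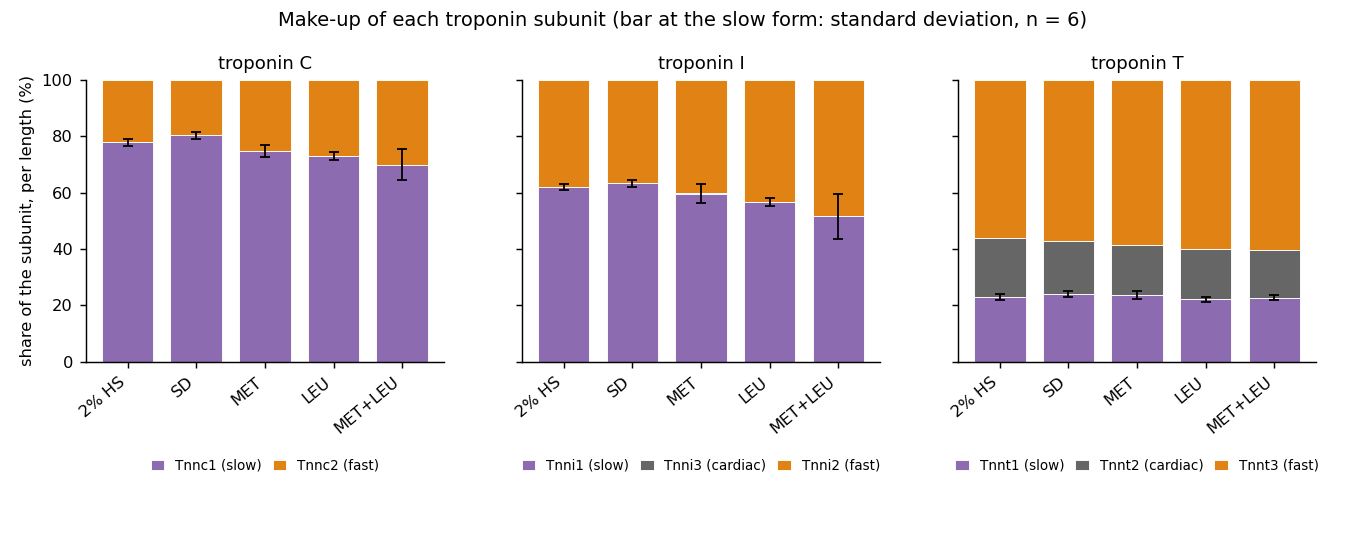
Share of each gene in its troponin subunit, per length of exon (vertical axes, percent), in the 5 groups (horizontal axes), with the standard deviation of the slow gene's share as a bar (n = 6). The slow share of troponin C is 80.2% in SD and 69.9% in MET+LEU and that of troponin I 63.2% and 51.5%, while that of troponin T is 23.9% and 22.7%. The slow shares in MET+LEU without replicate 6 are 72.1%, 54.7% and 22.6%.

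Genes of the same structures and fibres were described from lists chosen with earlier results of these data known, and no test compared a list with the troponins. Of all genes tested, 13.9% fell and 13.9% rose in SD vs. 2% HS, and 10.6% rose and 7.8% fell in MET+LEU vs. SD, which is the background of the counts that follow. Of 20 partners of troponin in the thin filament (actins, tropomyosins, nebulin and capping proteins), 9 fell and 0 rose in SD vs. 2% HS, and 13 rose and 1 fell in MET+LEU vs. SD. Their median log2 fold change with MET+LEU was 0.18, beside 0.61 for the troponins. Among them Lmod3, a leiomodin that elongates the filament, rose by 0.43 (adjusted p = 3.1e-06) and Tpm2, a tropomyosin, by 0.36 (adjusted p = 1.4e-05). The gene that fell was Actg1, a cytoplasmic actin (-0.14, adjusted p = 0.0229), named after its value was seen. In SD vs. 2% HS the pointed-end cap Tmod4 fell by 1.12 on the log2 scale and nebulin (Neb) by 0.44 (adjusted p = 2.4e-08 and 5.2e-07).

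Most fibre genes other than troponins fell with SD. Of 20 fast fibre genes, 12 fell and 1 rose in SD vs. 2% HS (median log2 fold change -0.30), among them parvalbumin, Pvalb (-1.34), and fast myosin-binding protein C, Mybpc2 (-0.997). Of 19 slow fibre genes tested, 14 fell and 1 rose (median -0.33), among them sarcolipin, Sln (-1.42), and slow myosin light chain, Myl2 (-0.93). With MET+LEU, 5 of the 20 fast genes rose and 1 fell, with Myh1 at 0.46 (adjusted p = 1.7e-06) and Myh4 at 0.44 (adjusted p = 0.00160), both fast myosin heavy chains. The others, chosen after their values were seen, were Myl1 (0.29), Actn3 (0.17) and Ampd1 (0.44), which rose, and the calcium pump Atp2a1, which fell (-0.13). In SD vs. 2% HS the genes that rose were Mylpf (0.18) among the fast and Casq2 (0.15) among the slow genes. Of the 19 slow genes, 10 rose and 0 fell, with Myl2 at 0.49 (adjusted p = 0.00123) and Ankrd2, a stretch-responsive ankyrin repeat protein, at 0.35 (adjusted p = 7.5e-04). The median log2 fold changes of the slow and fast genes outside the troponins were 0.25 and 0.093, and whether the lists differed was not tested. With the GC and length correction 12 of the 20 fast genes passed in MET+LEU vs. SD in place of 6, in either direction. Of all genes, 25.4% then passed in place of 18.4%.

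Of 25 regulators of fibre type, 5 rose and 9 fell in SD vs. 2% HS. Ppargc1a, a coactivator of the slow oxidative programme, fell by 1.14 on the log2 scale (adjusted p = 3.1e-10), and Nfatc2, a calcineurin-dependent factor, rose by 0.61 (adjusted p = 3.2e-07). Among the other regulators that rose were Nfatc1 (0.38), Rcan1 (0.28) and Prox1 (0.23), named after their values were seen. Of the 9 that fell, the larger part, only Ppargc1a is named here. The median log2 fold change of the 25 was -0.083 in SD vs. 2% HS. In MET+LEU vs. SD, 2 rose and 2 fell, among them Tbx15 (0.10) and Mef2d (-0.093). Mef2c, a muscle transcription factor, rose by 0.24 (adjusted p = 3.3e-05), and the histone deacetylase Hdac5 fell by 0.16 (adjusted p = 0.0305), a call that was lost without MET+LEU replicate 6 (adjusted p = 0.0909). All 12 lists held 132 tested entries, with a gene in more than 1 list counted in each. With MET, 0 of these passed with edgeR and with DESeq2, beside 0.157% of all genes with edgeR. An unadjusted p under 0.05 in edgeR was found for 24, beside 10% of all genes. With LEU, 5 passed, namely Myh1 (0.25), the cycling markers Top2a (-0.46), Ccnb1 (-0.70) and Aurkb (-0.50), and Col1a1 (-0.20). That was beside 0.553% of all genes, and with DESeq2 it was 7 entries.

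**Figure D5:**
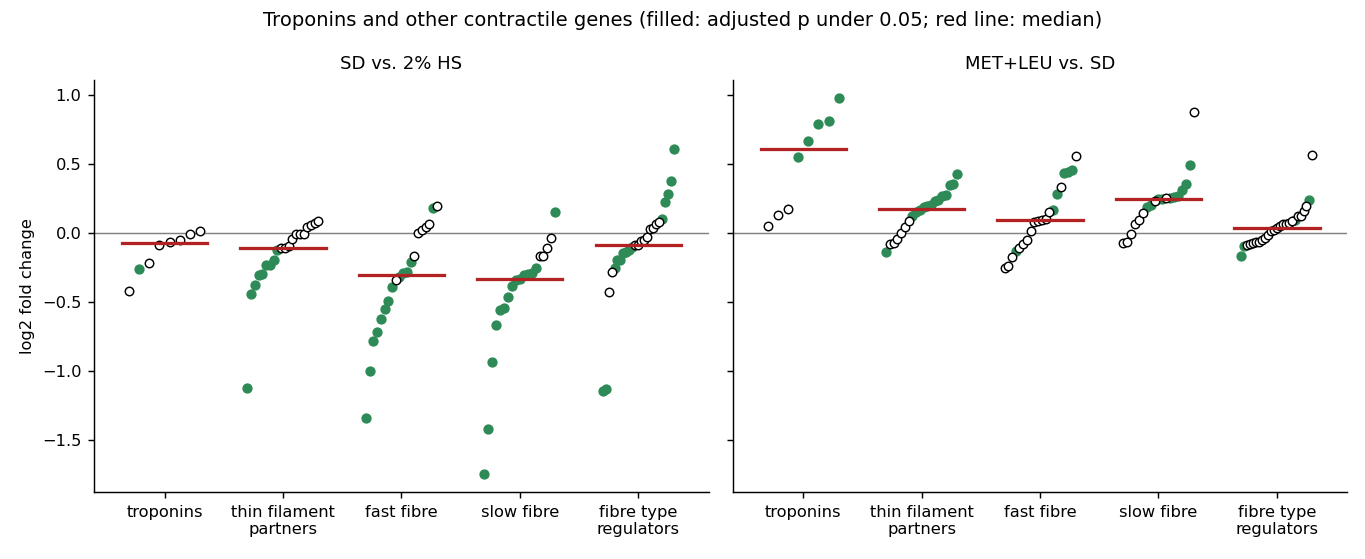
Log2 fold change (vertical axis) of the troponin genes and of 4 lists of related genes (horizontal axis) in SD vs. 2% HS and MET+LEU vs. SD, 1 point per gene, filled where the adjusted p was under 0.05, with the median as a red line. The troponin median is -0.072 in the left panel, above the medians of all 4 lists, and 0.61 in the right panel, above those of all 4 lists.

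Markers of other states moved with some of these groups. All 10 markers of cycling cells fell in MET+LEU vs. SD (median log2 fold change -0.62), with summed levels of 129.9 to 158 CPM in MET+LEU and 177 to 247 CPM in SD. All 7 tested of 8 fibroblast markers rose in SD vs. 2% HS (median 0.83), from 2992 to 3304 CPM in 2% HS to at least 5254 CPM in SD. Of the 10 myotube markers, Des and Chrna1 rose and Mymx, Ckm and Ttn fell in SD vs. 2% HS, and the embryonic and perinatal myosins Myh3 and Myh8 rose and Mymx fell in MET+LEU vs. SD. Of 10 markers of undifferentiated myoblasts, Id1 rose and Pax7, Id2, Cdh15, Vcam1 and Hes1 fell in SD vs. 2% HS, and Id2 and Vcam1 rose and Cdh15 and Itga7 fell in MET+LEU vs. SD. Of 6 smooth muscle markers tested, Acta2, Cnn1, Lmod1 and Smtn fell in SD vs. 2% HS, and Lmod1 rose and Smtn fell in MET+LEU vs. SD. Of the fibroblast markers, Dcn and Col3a1 rose and Col1a1 fell in MET+LEU vs. SD. Of the heart muscle genes tested, Gata4 rose and Myh6 fell in SD vs. 2% HS, and Myh6 rose by 0.78 on the log2 scale in MET+LEU vs. SD (adjusted p = 0.00296). Endothelial and leukocyte markers summed to at most 4.11 and 4.65 CPM, with Emcn and Adgre1 at 0 in all libraries. The part of these markers in the troponin values was not tested.

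The genes whose pattern over the 30 libraries was most like that of each member are given as a description. For Tnni1 the closest was Myl4, an embryonic and atrial myosin light chain, with a Pearson correlation of log2 CPM of 0.908, followed by Mdh1 (0.880) and Atp5a1 (0.877). For Tnnc1 they were Serpinb6a (0.809), Polr2e (0.780) and Mdh1 (0.771). For Tnnt2 they were Hrc, a calcium-binding protein of the sarcoplasmic reticulum (0.963), Nexn (0.931) and Brd7 (0.928). Tnnc2 was closest to Golga4 (0.935), the ribosomal protein gene Rpl4 (0.931) and Mrps15 (0.930). Tnni2 was closest to Rn7sk, a small nuclear RNA (0.962), Stip1 (0.958) and Rpl4 (0.953). Tnnt3 was closest to Rpl14 (0.956), Golga4 (0.950) and Cox6c (0.949), and Tnnt1 to Golga4 (0.945), Rpl14 (0.941) and the perinatal myosin Myh8 (0.937). For Tnni3 no gene exceeded 0.623 (Agk, then Myof at 0.618 and Efnb2 at 0.595). The closest genes are the highest of 9873 compared, the libraries share their groups, and no p is given. Without MET+LEU replicate 6 the correlation of Tnnt1 with Myh8 was 0.854 and that of Tnnt2 with Nexn 0.831, while that of Tnni1 with Myl4 was 0.936. The order also changed without that library. Myh8 then ranked 23 for Tnnt1, Golga4 ranked 9 for Tnnt3, and Serpinb6a and Polr2e ranked 8 and 13 for Tnnc1, where Mdh1 ranked 1. Myl4 for Tnni1, Hrc for Tnnt2, Rn7sk for Tnni2 and Agk for Tnni3 kept rank 1.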

How the data were processed

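Total RNA of C2C12 myotubes was sequenced in 30 libraries after ribosomal RNA depletion with a stranded kit, as paired reads. The authors deposited raw counts per gene, made per the submitters' processing notes with cutadapt 1.16, STAR 2.7.6a on GRCm38 and featureCounts 1.6.3. The annotation release and strand setting are not given in the sources used here, and 55141 of 55487 gene IDs were matched to GENCODE M21. Ribosomal RNA left after depletion takes counts from all other genes in a library.

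Groups followed the sample labels. Genes passed edgeR's filterByExpr (minimum count 10, minimum total 15), counts were scaled by TMM, and edgeR 4.0.16 in R 4.3.3 fitted 1 robust quasi-likelihood model to all 30 libraries, with Benjamini-Hochberg adjustment over 15907 genes and a threshold of 0.05 (5% FDR). All p-values given for genes are from this test unless another tool is named. DESeq2 1.42.0 and limma-voom 3.58.1 were alternatives, with other scalings, no filter, only the groups compared, a replicate block and each library left out in turn. Fits without MET+LEU replicate 6 where that group was not compared, with ribosomal RNA shares as terms and with the GC and length correction were added after seeing the data. Ratios were log2 of counts plus 0.5, with exact permutation tests. The model was tested on simulated data with known changes. The simulation did not copy the ribosomal RNA shares of MET+LEU replicate 6 or of the groups. It therefore cannot vouch for calls that depend on them. Tnni3 had 8 to 40 counts a library, which gives wide intervals, while the other members had at least 2085 counts in every library.

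The members and lists were chosen with earlier results of these data known. Named were all members, the 3 genes most correlated with each among genes of mean log2 CPM of at least 3, and of 4 lists the 2 genes past the threshold with the largest change in each of the comparisons SD vs. 2% HS and MET+LEU vs. SD, at a mean log2 CPM of at least 1. Other genes named were chosen after their values were seen.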

Additional observations from a re-analysis of the deposited data

Results flagged for a closer look

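In MET+LEU replicate 6, 5 members lay far from the other 5 libraries of the group. Tnnc2 was at 566 CPM, where the others reached 346, Tnni2 at 704 CPM, where they reached 401, and Tnnt1 at 678 CPM, where they reached 411. Tnnt2 was at 1639.9 CPM and Tnnt3 at 1243 CPM, where the others reached 1008 and 765 CPM. The count ratios of that library stood apart in the same way. Tnnc2/Tnnc1 was 0.534, where the others reached 0.337, and Tnni2/Tnni1 was 0.751, where the others reached 0.361. The same library had the highest nuclear (5.85%) and mitochondrial (7.64%) ribosomal RNA shares, whose part in these values was not tested. In SD replicate 2, Tnnt3 was at 389.8 CPM, below the other 5 libraries from 453 to 487 CPM. A gap to the nearest library of this size, relative to the range of the group, was seen 8 times in 55 groups examined. For a single group chance gives about 1 in 20. The groups share libraries, and the ratios share genes with the members, so the count cannot be read against that rate. All these gaps but the 1 in SD replicate 2 came from MET+LEU replicate 6.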

How the results depend on the processing

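Among the comparisons that use MET+LEU and SD, the count of 5 upregulated troponin genes was 5 to 6 over the fits that each left out 1 library, 5 with DESeq2, limma-voom and the replicate block, 7 with the GC and length correction, 4 with mitochondrial ribosomal RNA as a term with or without MET+LEU replicate 6, and 3 with nuclear ribosomal RNA as a term. In SD vs. 2% HS the count of 1 went to 0 with DESeq2, without the filter and with the GC and length correction, to 2 with only the groups compared, to 4 with mitochondrial ribosomal RNA as a term and to 3 with that term and MET+LEU replicate 6 left out. In MET vs. SD the count of 0 went to 2 with MET+LEU replicate 6 out of the model, and in LEU vs. SD the count of 1 went to 2 with DESeq2, 4 with limma-voom, 4 with only the groups compared, 2 without the robust option, 4 with MET+LEU replicate 6 out of the model, 2 with mitochondrial ribosomal RNA as a term, and 0 with nuclear ribosomal RNA, with the GC and length correction and with mitochondrial ribosomal RNA and replicate 6 left out. In MET+LEU vs. 2% HS the count of 5 went to 2, 1 and 1 with mitochondrial, nuclear, and mitochondrial ribosomal RNA and replicate 6 left out. In MET+LEU vs. MET the count of 6 went to 3, 0 and 3 in these fits and to 1 with only the groups compared, and in MET+LEU vs. LEU the count of 3 went to 1, 0 and 1, to 0 with only the groups compared, to 5 without the robust option and to 7 with the GC and length correction. The interaction went from 0 to 1 with the GC and length correction. Leaving out 1 library gave counts of 0 to 1 in SD vs. 2% HS and in LEU vs. SD, 0 in MET vs. SD and the interaction, 5 to 6 in MET+LEU vs. 2% HS and vs. MET, and 0 to 4 in MET+LEU vs. LEU. Of the lists in MET+LEU vs. SD, 4 regulators went to 2 without MET+LEU replicate 6 and to 9 with the GC and length correction. With the GC and length correction 25.4% of all genes passed in MET+LEU vs. SD, beside 18.4% without it. Where no share of all genes is given for a setting, its troponin count cannot be set against one. The cause of these moves was not tested.

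Of the log2 fold changes that changed sign, that of Tnnt2 in MET+LEU vs. 2% HS had passed the test, and the others had not. Without the filter Tnnc1 was at 0.0036 in SD vs. 2% HS, and with limma-voom Tnni1 was at -0.012 in SD vs. 2% HS and 0.012 in LEU vs. SD and Tnnt3 at -0.0031 in the interaction. With the GC and length correction Tnnc1 was at -0.026 and Tnni1 at 0.0020 in LEU vs. SD, and Tnnc2 at 0.17 in the interaction. With mitochondrial ribosomal RNA as a term Tnnt2 was at -0.0073 in MET vs. SD and -0.15 in MET+LEU vs. 2% HS, and Tnnc1 at -0.024 and Tnni1 at 0.028 in LEU vs. SD. With nuclear ribosomal RNA Tnnc1 was at -0.020 in LEU vs. SD, Tnni3 at -0.026 in MET+LEU vs. MET and Tnnt3 at -0.0050 in the interaction. With mitochondrial ribosomal RNA and MET+LEU replicate 6 left out Tnni3 was at -0.18 in MET vs. SD, -0.25 in MET+LEU vs. SD and -0.074 in MET+LEU vs. MET, Tnnc1 at -0.074 in LEU vs. SD and -0.020 in MET+LEU vs. 2% HS, and Tnnt2 at -0.076 in MET+LEU vs. 2% HS. Over fits that left out 1 library, the ranges that crossed 0 were -0.066 to 0.026 for Tnnc1 and -0.024 to 0.046 for Tnni1 in SD vs. 2% HS, -0.067 to 0.0022 for Tnni1 and -0.029 to 0.17 for Tnni3 in MET vs. SD, -0.026 to 0.065 for Tnnc1 and -0.046 to 0.024 for Tnni1 in LEU vs. SD, -0.013 to 0.28 for Tnni3 in MET+LEU vs. SD, -0.079 to 0.21 for Tnni3 in MET+LEU vs. MET, and -0.21 to 0.054 for Tnnc2, -0.0087 to 0.19 for Tnnt2 and -0.040 to 0.18 for Tnnt3 in the interaction.

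Replicate numbers are shared by the groups in the labels, and libraries with the same number did not deviate together. The mean correlation of their deviations from the group means was 0.0157 over 60 pairs, with a range of -0.0913 to 0.143, and 11 of 30 libraries correlated best with one of their own number. So the number was not taken as a pairing. With the replicate block the troponin counts were 1 for SD vs. 2% HS, 0 for MET and 1 for LEU against SD, 5, 6, 6 and 2 for MET+LEU against SD, 2% HS, MET and LEU, and 0 for the interaction. The shares of all genes with the block are not given here. For the ratios, pairing gives a smallest exact p of 0.0313 with 6 pairs. Whether adjusted values can pass then depends on how many of the 15 tests reach it, and none passed here. The paired differences were the same, with -0.21 for C in SD vs. 2% HS (adjusted p = 0.117), 0.46 and 0.22 for C and I with MET, 0.59, 0.40 and 0.18 for C, I and T with LEU, 0.80 and 0.70 for C and I in MET+LEU vs. SD and 0.59 and 0.62 in MET+LEU vs. 2% HS (adjusted p = 0.0521 for each), and 0.15 and 0.12 for T in the last 2 comparisons (adjusted p = 0.0852, exact permutation tests). Leaving out 1 library gave ranges of 0.16 to 0.27 for I with MET and -0.10 to -0.059 for I in SD vs. 2% HS.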
